A study of Mus musculus with 67 samples.

Results

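The contrast described here is extra-embryonic ectoderm (ExE) against epiblast (Epi) of mouse embryos at embryonic day 5.5 (E5.5) that developed in the uterus. It rests on 4 of the 67 libraries of the series: the 2 wild-type ExE libraries and the 2 wild-type Epi libraries whose stage label reads E5.5 in vivo, compared over all genes on the log2(TPM + 1) scale, where TPM is a transcript abundance corrected for length and scaled to the same total in each library. Embryos of natural matings were dissected from the decidua and dissociated with trypsin, and polyadenylated RNA from cytoplasmic lysates of small pools of cells was turned into full-length cDNA by Smart-seq2 with 17 cycles of amplification. The series used a mouse line in which a Pdgfra promoter drives EGFP as an aid to lineage isolation, and it followed lineages from the blastocyst to E5.5. Set beside them are 6 libraries of ExE and Epi from E5.5 embryos cultured in Matrigel (3 each), also wild type. A further 6 are of wild-type ExE and Epi at E4.75 (3 each). The labels do not say whether the E4.75 embryos were cultured, so stage and setting cannot be told apart in comparisons with E4.75. The protocol speaks of 3 biological replicates a group, whereas the ExE and Epi groups used here held 2 libraries each.

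The 2 tissues lie side by side in the egg cylinder. The epiblast gives rise to the embryo proper, and at this stage it leaves the naive pluripotent state and takes up the formative state that precedes gastrulation. The extra-embryonic ectoderm descends from the polar trophectoderm and holds the trophoblast stem cells of the future placenta. Known traffic between them includes epiblast FGF4, which maintains trophoblast stem cells through FGFR2 and ERK, and ExE BMP4, which patterns the neighbouring epiblast.

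Of the 3 genes that mark the tissues, Elf5 and Bmp4 separated the libraries as their labels say and Pou3f1 did not. Elf5 (chromosome 2, 103411688 to 103450989, GRCm38) encodes an ETS factor that seals trophoblast fate. It measured 42.8 and 44.1 TPM in ExE and was listed at 0 in both Epi libraries (adjusted p = 3.3e-21). Bmp4 (chromosome 14, 46383520 to 46390669) encodes the signalling ligand named above and measured 316 and 245 TPM in ExE, against 5.91 and 0 TPM in Epi, a log2 difference of 6.73 ± 0.75 (SE; adjusted p = 2.7e-10). Pou3f1 (chromosome 4, 124656807 to 124660655) encodes the POU factor OCT6, a usual marker of the formative epiblast. It measured 238 and 197 TPM in ExE and 196 and 207 TPM in Epi, so its groups overlapped and the log2 difference was 0.10 ± 0.40 (adjusted p = 1). Pou3f1 RNA was present in both tissues, and its level did not separate them.

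The Elf5 promoter is the classic case of a trophoblast gate: it is known to be unmethylated and active in trophoblast and methylated in the embryo's own lineage. The windows from 250 bases before to 50 bases after the annotated starts of the marker genes are shown because methylation acts on their CpG dinucleotides, printed in capitals (RefSeq, GRCm38.p6). Elf5 has 2 annotated starts on the plus strand, chr2:103411848-103412147 and chr2:103423818-103424117, and Bmp4 has 1 on the minus strand, chr14:46390620-46390919.
Elf5, first start: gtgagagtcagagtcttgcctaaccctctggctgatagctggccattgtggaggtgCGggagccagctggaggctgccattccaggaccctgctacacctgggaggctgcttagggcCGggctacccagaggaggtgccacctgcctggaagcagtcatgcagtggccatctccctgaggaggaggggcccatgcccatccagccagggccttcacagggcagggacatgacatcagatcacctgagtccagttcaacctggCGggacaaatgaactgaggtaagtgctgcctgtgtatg
Elf5, second start: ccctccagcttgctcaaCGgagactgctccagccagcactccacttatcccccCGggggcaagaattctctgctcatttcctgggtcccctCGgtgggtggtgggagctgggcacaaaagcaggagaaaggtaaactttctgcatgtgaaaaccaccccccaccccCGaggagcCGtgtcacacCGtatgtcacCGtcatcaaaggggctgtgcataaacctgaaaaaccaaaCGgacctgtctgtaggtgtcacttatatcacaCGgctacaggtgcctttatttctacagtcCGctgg
Bmp4: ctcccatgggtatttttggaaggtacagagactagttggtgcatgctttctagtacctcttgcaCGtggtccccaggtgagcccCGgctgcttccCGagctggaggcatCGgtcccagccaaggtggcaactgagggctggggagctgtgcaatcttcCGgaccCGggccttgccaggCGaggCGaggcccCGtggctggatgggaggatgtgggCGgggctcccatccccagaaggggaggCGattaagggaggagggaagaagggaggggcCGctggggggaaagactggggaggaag
The first Elf5 window held 3 CpGs, the second 10 and the Bmp4 window 12, where the median was 7 over the windows of 27025 genes and 19 over those of the 12003 tested genes that have one (77.1% of the genes tested below). The Bmp4 window held 1 match to the ETS letters CCGGAAG on either strand, which 9.12% of all windows and 17.0% of those of the tested genes hold, and neither Elf5 window held one. No methylation data were used here, so the letters stand as description only.

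Each library's TPM over the 25006 listed genes summed to between 993559 and 994459, and 9465 to 9931 genes a library were at or above 1 TPM. TPM keeps no read depth, so the depth of these libraries is unknown and no counting interval can be given. Across genes, log2(TPM + 1) correlated at r = 0.966 between the ExE libraries and at r = 0.942 between the Epi libraries, and at r = 0.891 to 0.902 between tissues. A value of exactly 0 may be a failed estimate in such small samples: of the 2831 genes at or above 5 TPM in every one of the other 63 libraries, 21 were listed at 0 in at least 1 of these 4. Such values are given as listed at 0, and no log2 difference is given for a gene with a whole group at 0, since it would depend on the 1 TPM added. In bulk samples like these, fewer cells of a type and less RNA per cell cannot be told apart.

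Of 15567 genes tested with limma, 1797 were higher in ExE (11.5%) and 1442 were lower (9.26%) at an adjusted p under 0.05 and a log2 difference of at least 1. Of these, 1704 of the higher and 1317 of the lower genes had libraries that did not overlap between tissues, which was true of 43.6% of all genes tested. Spread in this fit was pooled over all 67 libraries in 23 groups. The median standard deviation within a group over the tested genes was 0.18 in ExE and 0.25 in Epi in vivo (n = 2 each), 0.27 and 0.33 after culture and 0.13 and 0.17 at E4.75 (n = 3 each) on the log2 scale, and libraries of a group correlated at r = 0.988 to 0.994 at E4.75. Whether a group's replicates are different embryos is not given in the labels. A fit to the 4 libraries alone called 46 higher and 34 lower, array weights gave 1112 and 858, and p-values reflect only how far libraries of a group lie apart, a spread that may be technical. With each library left out in turn, 811 of the higher and 689 of the lower genes were called every time. The split between higher and lower also depends on scaling: 55.5% of calls were higher as deposited, 50.4% after quantile normalization and 47.0% after median-ratio scaling, which moved the median difference of genes at 1 TPM in all 4 libraries to -0.10 from 0.09.

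**Figure D1:**
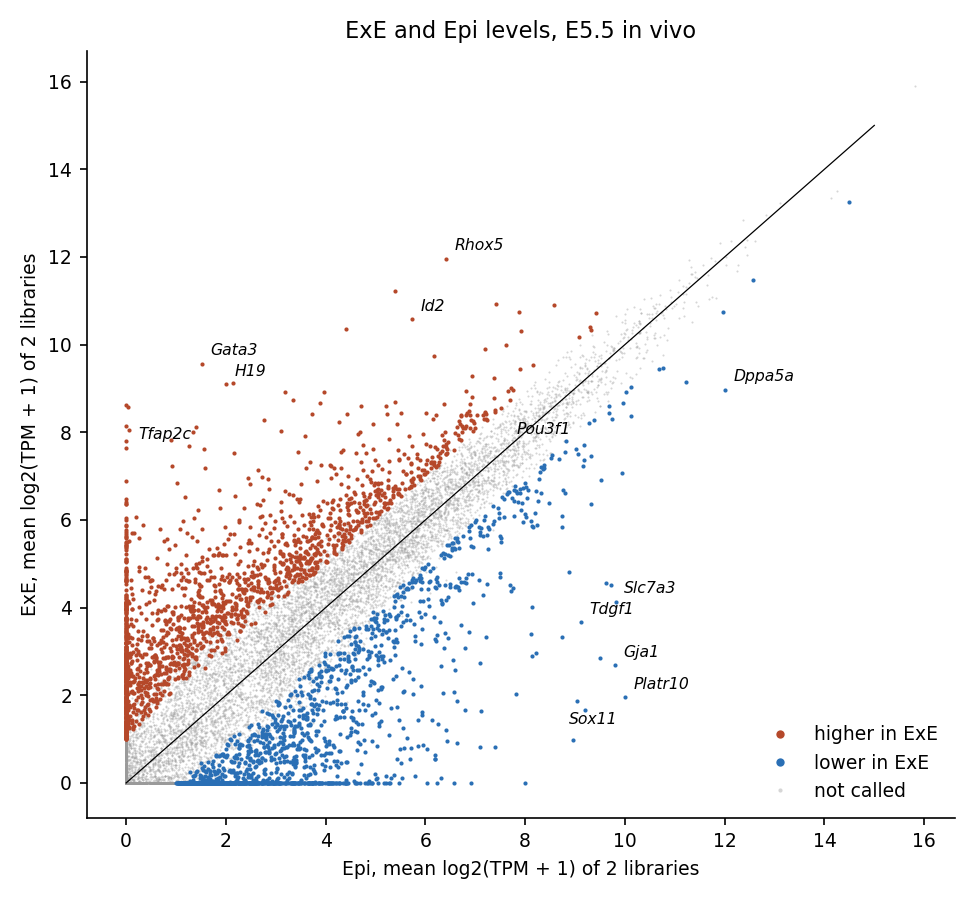
Mean log2(TPM + 1) of the 2 ExE libraries (vertical) against the mean of the 2 Epi libraries (horizontal) for each of 15567 genes tested, E5.5 in vivo, with the line of equal level. Genes called higher in ExE lie above the line and genes called lower in ExE below it, while Pou3f1 sits on it.

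The genes that set ExE most apart were a mix of trophoblast factors, a retinoic acid catabolic enzyme and imprinted transcripts. Cyp26a1 (chromosome 19, 37697798 to 37701536), whose product degrades retinoic acid, measured 268 and 258 TPM in ExE and 0 and 0.0935 TPM in Epi (log2 difference 7.98 ± 0.39, adjusted p = 4.7e-23). Both ExE libraries stood far above both Epi libraries. Morc4 (chromosome X, 139821632 to 139871677), of the MORC ATPase family, measured 595 and 529 TPM in ExE, against 4.71 and 2.38 TPM in Epi (7.0 ± 0.49, adjusted p = 5.6e-17). Anxa5, a calcium-dependent phospholipid-binding annexin, measured 234 and 283 TPM in ExE and 5.36 and 0 TPM in Epi (6.68 ± 0.64, adjusted p = 2.7e-12).

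Listed at 0 in both Epi libraries were 411 of the genes higher in ExE. Hs3st3b1, a heparan sulfate sulfotransferase, measured 244 and 199 TPM in ExE (adjusted p = 2.7e-22). Tinagl1, a secreted matrix glycoprotein, measured 163 and 239 TPM (adjusted p = 2.5e-23), and Duoxa2, the maturation factor of the hydrogen-peroxide-producing oxidase DUOX2, measured 121 and 112 TPM (adjusted p = 7.2e-17). Duox2 itself followed, with 22.3 and 28.2 TPM in ExE and 0 in both Epi libraries (adjusted p = 1.3e-19), so the enzyme and its partner were both listed in ExE alone among these 4 libraries.

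At the other end stood genes of the epiblast. Platr10 (chromosome 3, 75647446 to 75655731), a noncoding RNA linked to pluripotency, measured 3.34 and 2.51 TPM in ExE, against 903 and 1167 TPM in Epi, a log2 difference of -8.04 ± 0.57 (adjusted p = 7.6e-17). Sox11 (chromosome 12, 27334264 to 27342574), an SRY-box factor, measured 2.18 and 3.19 TPM in ExE and 488 and 571 TPM in Epi (-7.18 ± 0.40, adjusted p = 9.9e-21). Gja1 (chromosome 10, 56377330 to 56402513), which encodes connexin 43, measured 4.79 and 6.21 TPM in ExE and 793 and 1004 TPM in Epi (-7.11 ± 0.36, adjusted p = 2.4e-22). Its libraries did not overlap between tissues. Car14, a membrane carbonic anhydrase, measured 2.84 and 0 TPM in ExE and 477 and 515 TPM in Epi (-7.99 ± 0.60). Pla2g1b, a secreted phospholipase, measured 0 and 9.02 TPM in ExE and 637 and 537 TPM in Epi (-7.53 ± 0.58), and Pdpn, the mucin-type glycoprotein podoplanin, measured 5.02 and 7.69 TPM in ExE and 682 and 759.6 TPM in Epi (-6.64 ± 0.42). All 3 were far higher in both Epi libraries than in either ExE library. Among the 477 lower genes listed at 0 in both ExE libraries, Enpp2, which makes lysophosphatidic acid, measured 236 and 275 TPM in Epi, and Ifitm3, an interferon-induced membrane protein known from early germ cells, measured 104 and 137 TPM. Of the 24 genes that ranked highest in the 2 directions together, the fit to the 4 libraries alone called 7 of the 12 higher and 7 of the 12 lower.

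Factors of ExE and of trophoblast stem cells were higher in ExE as a group. Of 26 listed genes, 25 were tested, 22 were higher and none was lower. Over all genes tested 11.5% were higher and 9.26% lower, shares to set beside the count of each list below as well. The median log2 difference of the list was 4.26, against 0 over all genes tested, and it became 6.12 with a pseudocount of 0.1 TPM. Tfap2c (chromosome 2, 172549593 to 172558622), the AP-2 gamma factor of trophoblast, measured 297 and 264 TPM in ExE and was listed at 0 in both Epi libraries (adjusted p = 5.6e-15). Gata3 (chromosome 2, 9857078 to 9890034), a zinc-finger factor of the trophectoderm, measured 816 and 705 TPM in ExE, against 0 and 7.23 TPM in Epi (8.05 ± 0.87, adjusted p = 1.1e-10). Eomes (chromosome 9, 118478212 to 118486132), the T-box factor needed for trophoblast stem cells, measured 133 and 118 TPM in ExE and 6.02 and 5.19 TPM in Epi (4.26 ± 0.30, adjusted p = 6.3e-17). For each of the 3, both ExE libraries stood well above both Epi libraries.

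Levels within the trophoblast network were uneven. Ddah1, an enzyme that breaks down methylated arginine, measured 1241 and 1377 TPM in ExE, against 20.5 and 19.7 TPM in Epi (5.95 ± 0.28, adjusted p = 1.1e-23), and Esrrb, an orphan nuclear receptor of stem cells, measured 19.1 and 23.7 TPM in ExE and 1.02 and 0 TPM in Epi (3.97 ± 0.33, adjusted p = 2.6e-14). Cdx2, the caudal factor that starts trophectoderm fate, measured only 0 and 8.60 TPM in ExE and was listed at 0 in both Epi libraries (adjusted p = 0.034). Its ExE libraries disagreed, since replicate 1 was at 0 like Epi. Tead4 also spread widely, at 6.81 and 30.2 TPM in ExE and 0 in Epi (adjusted p = 1.4e-08). The 3 tested members without a call were Rhox9 at 7.73 and 0 TPM in ExE and 4.95 and 0 TPM in Epi, the LIF receptor gene Lifr at 3.41 and 3.84 TPM in ExE and 4.98 and 2.63 TPM in Epi, and Msx2 at 0 and 2.99 TPM in ExE and 0 in both Epi libraries.

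**Figure D2:**
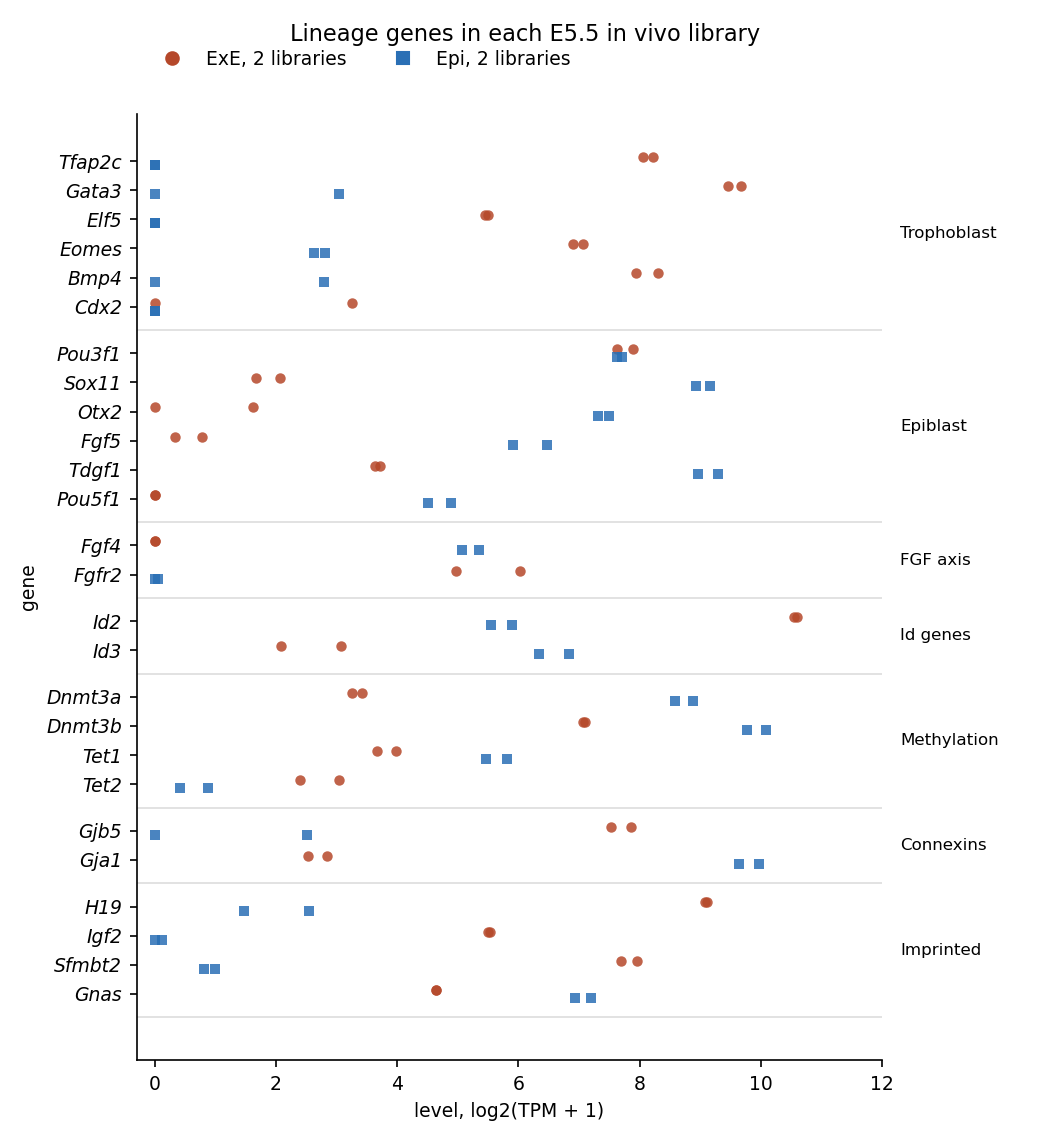
Level, log2(TPM + 1), of genes named in the text in each of the 4 E5.5 in vivo libraries, with ExE libraries as circles above Epi libraries as squares, grouped by role. Pou3f1 overlaps between tissues, Cdx2 is at 0 in 1 ExE library and Gja1 is far higher in Epi.

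Genes of the ectoplacental cone and placental progenitors, which arise from ExE, were mostly higher too. Of 21 listed genes 16 were tested, 11 were higher and 1 was lower, a call lost without ExE or Epi replicate 2. The median log2 difference was 2.46, and 3.23 with a pseudocount of 0.1 TPM. Hand1, a bHLH factor of trophoblast differentiation, measured 58.0 and 72.3 TPM in ExE and was listed at 0 in both Epi libraries (adjusted p = 1.1e-17). Plet1, an ExE surface marker, measured 45.1 and 42.9 TPM in ExE and was likewise at 0 in both Epi libraries (adjusted p = 8.1e-10). Gjb5, a gap junction gene, measured 183 and 231 TPM in ExE, against 4.72 and 0 TPM in Epi (6.43 ± 0.55, adjusted p = 6.9e-14). Ascl2 and Plac1, genes of the ectoplacental lineage, were not called: Ascl2 measured 7.52 and 6.41 TPM in ExE and 2.46 and 7.80 TPM in Epi, and Plac1 9.55 and 2.94 TPM in ExE and 0 and 8.30 TPM in Epi. Their libraries overlapped between tissues. Gcm1 and the syncytin genes Syna and Synb, which come on in later placental layers, were listed at 0 in all 4 libraries.

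RNA of trophoblast giant cells, the polyploid cells that border ExE and the decidua, was low in ExE. The 12 listed genes summed to 226 and 166 TPM in the ExE libraries, against 69.6 and 23.9 TPM in the Epi libraries, and 4 of 10 tested were higher and 1 lower, a call lost without ExE or Epi replicate 1. Ctsb, a cathepsin gene that many cell types express, measured 99.3 and 104 TPM in ExE and 48.7 and 20.7 TPM in Epi. Lcp1 measured 40.6 and 31.8 TPM in ExE and 4.07 and 0.0516 TPM in Epi. Ctsb and Lcp1 together made up most of each sum, so the sums do not speak for the giant cell list as a whole. Prl3d1, a placental lactogen of giant cells, measured 58.6 and 22.5 TPM in ExE and was listed at 0 in both Epi libraries (adjusted p = 8.1e-05). It reached 101237 to 115076 TPM in the giant cell libraries of cultured E5.5 embryos. The part of giant cell RNA in the ExE profile was not tested.

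The formative program ran the other way, with Pou3f1 as an exception. Of 25 genes of the formative and primed epiblast 24 were tested, 15 were lower in ExE and 1 was higher. The median log2 difference was -2.76, and -4.09 with a pseudocount of 0.1 TPM. Otx2 (chromosome 14, 48657677 to 48673819), a homeobox factor that drives exit from naive pluripotency, measured 2.07 and 0 TPM in ExE, against 179 and 158 TPM in Epi (-6.59 ± 0.49, adjusted p = 4.1e-16). Fgf5, the usual ligand marker of this state, measured 0.713 and 0.258 TPM in ExE and 88.3 and 59.1 TPM in Epi (-5.64 ± 0.60, adjusted p = 6.7e-11). Sox4 measured 0.694 and 0.835 TPM in ExE and 141 and 132 TPM in Epi, and Cd24a, which encodes a surface sialoglycoprotein, 0 and 0.183 TPM in ExE and 80.0 and 76.5 TPM in Epi. Neither gene's libraries overlapped. Slc7a3, a cationic amino acid transporter, had 15.4 and 17.8 TPM in ExE and 937 and 867 TPM in Epi (-5.68 ± 0.54, adjusted p = 2.7e-12). Like Pou3f1, Utf1 was high in both tissues, at 602 and 551 TPM in ExE and 698 and 584 TPM in Epi, and was not called (adjusted p = 0.74). The 1 higher member, Sox3, was low throughout, at 5.0 and 3.07 TPM in ExE and 0.248 and 0.387 TPM in Epi, and its adjusted p of 0.0095 became 0.1 without ExE replicate 1 and 0.053 without Epi replicate 1.

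Core pluripotency genes were lower in ExE in 10 of 16 and higher in none, with a median log2 difference of -1.46. Pou5f1, which encodes OCT4, was listed at 0 in both ExE libraries and measured 21.7 and 28.6 TPM in Epi (adjusted p = 6.2e-11). Tdgf1, which encodes the NODAL coreceptor CRIPTO, measured 12.1 and 11.4 TPM in ExE, against 626 and 499 TPM in Epi (-5.46 ± 0.26, adjusted p = 1.1e-23). Dppa4, a chromatin factor of pluripotent cells, measured 187 and 221 TPM in ExE and 192 and 199.7 TPM in Epi, and Trim71, an RNA-binding repressor, 101 and 76.9 TPM in ExE and 128 and 118 TPM in Epi. Neither was called, so part of the core set was shared by both tissues.

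Naive pluripotency genes were more often called higher than lower in ExE, although their summed TPM was lower there. The list summed to 862 and 898 TPM in ExE and to 4289 and 4136 TPM in Epi, and Dppa5a made up most of the Epi sum. Zfp42, Nr0b1 and Esrrb, all higher in ExE, also stand in the trophoblast stem factor list, so the 2 lists share calls. Of 15 tested, 7 were higher in ExE and 2 were lower, with a median log2 difference of 0.78 that became 1.57 without ExE replicate 1, 1.23 without ExE replicate 2 and 2.19 with a pseudocount of 0.1 TPM. Klf5, a Krüppel-like factor of trophectoderm and naive cells, measured 46.9 and 46.8 TPM in ExE, against 0.439 and 0 TPM in Epi (5.32 ± 0.41, adjusted p = 1.9e-15). Zfp42, which encodes REX1, measured 279 and 232 TPM in ExE and 25.2 and 24.6 TPM in Epi (3.30 ± 0.29, adjusted p = 3.2e-13). Nr0b1, an orphan receptor of stem cells, measured 11.4 and 23.4 TPM in ExE and was at 0 in both Epi libraries (adjusted p = 3.8e-07). The 2 lower genes were Dppa3, a maternal factor that guards methylation, and Dppa5a, an RNA-binding protein of pluripotent cells. Dppa3 measured 0 and 0.228 TPM in ExE and 52.7 and 56.7 TPM in Epi (-5.65 ± 0.57, adjusted p = 1.4e-11), and Dppa5a 463 and 539 TPM in ExE and 4198 and 4045 TPM in Epi (-3.04 ± 0.11, adjusted p = 1.2e-27). Klf4 measured 10.8 and 8.35 TPM in ExE and 5.90 and 10.4 TPM in Epi, and was not called.

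Genes of the primitive streak, which forms later in the posterior epiblast, gave 2 higher and 2 lower in ExE of 14 tested. These stand beside 11.5% and 9.26% of all genes, and every call but that of Lhx1 was lost with some 1 library left out. The brachyury gene T measured 3.16 and 0.644 TPM in ExE and was at 0 in Epi (adjusted p = 0.001, and 0.19 without ExE replicate 1). Mixl1, a homeobox gene of the streak, measured 21.2 and 4.53 TPM in ExE and 3.39 and 0 TPM in Epi (adjusted p = 0.0063, 0.26 without ExE replicate 1 and 0.29 without Epi replicate 2). Lhx1, a LIM homeobox gene, measured 0 and 0.346 TPM in ExE and 1.35 and 11.7 TPM in Epi (-2.23 ± 0.37, adjusted p = 3.4e-06), and its groups did not overlap.

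In the FGF pathway the called ligand genes were lower in ExE and the called receptor genes higher. Of 32 genes tested, 7 were higher and 8 lower in ExE, beside 11.5% and 9.26% of all genes. Fgf4 was listed at 0 in both ExE libraries and measured 32.7 and 39.7 TPM in Epi (adjusted p = 2.6e-16), and Fgf15 measured 0 and 1.11 TPM in ExE and 103 and 50.2 TPM in Epi (-5.65 ± 0.34, adjusted p = 3.1e-19). The receptor gene Fgfr2 measured 30.3 and 64.1 TPM in ExE, against 0 and 0.0381 TPM in Epi (5.47 ± 0.54, adjusted p = 6.7e-12). Fgfr4, another receptor gene, measured 14.9 and 13.9 TPM in ExE and was at 0 in Epi (adjusted p = 9e-09). The ligand gene Fgf4 and the receptor gene Fgfr2 thus lay in opposite tissues, each at or close to 0 in the other. Fgfr1 measured 24.7 and 26.9 TPM in ExE and 16.8 and 8.17 TPM in Epi (1.07 ± 0.39, adjusted p = 0.039), so Epi also held a receptor message. Downstream, the docking protein gene Gab1 measured 42.8 and 31.6 TPM in ExE and 2.92 and 2.36 TPM in Epi (3.38 ± 0.44, adjusted p = 1.8e-08), and the adaptor gene Grb2 82.3 and 82.5 TPM in ExE and 19.6 and 24.3 TPM in Epi (1.87 ± 0.33, adjusted p = 9e-06). Feedback genes were split: the ERK phosphatase gene Dusp4 measured 0 and 3.78 TPM in ExE and 19.1 and 18.2 TPM in Epi (-3.17 ± 0.50, adjusted p = 1.2e-06), whereas the inhibitor Spry2 was high in both, at 1228 and 1171 TPM in ExE and 1411 and 1652 TPM in Epi, and was not called.

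The called BMP ligand genes were higher in ExE. Of 26 pathway genes tested, 8 were higher and 2 lower in ExE, beside 11.5% and 9.26% of all genes. Bmp8b, a ligand that acts with BMP4 on the epiblast, measured 15.5 and 34.8 TPM in ExE and was at 0 in both Epi libraries (adjusted p = 5.1e-11), and Bmp7, another ligand, measured 4.76 and 2.82 TPM in ExE with Epi at 0 (adjusted p = 3.8e-07). The inhibitor of DNA binding genes Id2 and Id3, usual BMP targets, went opposite ways. Id2 measured 1557 and 1489.8 TPM in ExE, against 46.0 and 58.8 TPM in Epi (4.85 ± 0.26, adjusted p = 3.7e-21), while Id3 measured 7.38 and 3.23 TPM in ExE, against 114 and 79.9 TPM in Epi (-4.02 ± 0.34, adjusted p = 3.3e-14). The signal transducer Smad1 measured 2.43 and 2.58 TPM in ExE and 11.8 and 12.8 TPM in Epi (-1.93 ± 0.47, adjusted p = 0.0012), and the inhibitory Smad7 57.4 and 52.0 TPM in ExE and 19.3 and 6.93 TPM in Epi (2.13 ± 0.45, adjusted p = 0.0002). Msx1, a target gene, measured 21.2 and 16.6 TPM in ExE and 22.9 and 12.7 TPM in Epi and was not called.

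Genes of the NODAL signal and of its coreceptor, Tdgf1, were lower in ExE, while a convertase, Smad3 and 1 antagonist were higher. Of 24 genes tested, 6 were lower and 5 higher in ExE, beside 9.26% and 11.5% of all genes. Gdf3, a ligand of this pathway, was at 0 in both ExE libraries and measured 36.7 and 14.3 TPM in Epi (adjusted p = 6.7e-13), and Foxh1, the DNA-binding partner of SMAD2, measured 2.65 and 0 TPM in ExE and 26.0 and 22.3 TPM in Epi (-3.71 ± 0.35, adjusted p = 1.9e-12). The antagonist follistatin gene Fst was at 0 in ExE and measured 14.9 and 13.3 TPM in Epi (adjusted p = 5.3e-05), while the related antagonist gene Fstl3 went the other way, at 6.68 and 17.6 TPM in ExE and 0 in both Epi libraries (adjusted p = 0.0004). Nodal itself was listed at 0 in 3 of the 4 libraries, with 6.20 TPM in Epi replicate 1, and its call (adjusted p = 0.045) was lost without Epi replicate 1 (adjusted p = 1) or either ExE library (adjusted p of 0.13 and 0.14). Pcsk6, the convertase PACE4 that ExE is known to supply for NODAL processing, measured 16.7 and 26.0 TPM in ExE and 4.13 and 0 TPM in Epi (3.27 ± 0.51, adjusted p = 1.3e-06). Smad3 measured 4.56 and 12.1 TPM in ExE and was at 0 in Epi (adjusted p = 6e-06), whereas Smad4, shared by both pathways, measured 7.58 and 10.4 TPM in ExE and 8.54 and 23.4 TPM in Epi and was not called.

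In the WNT pathway 4 of 39 genes tested were higher and 9 lower in ExE, beside 11.5% and 9.26% of all genes, and the 9 became 5 without Epi replicate 2, 6 without ExE replicate 2 and 4 with array weights. The ligand genes Wnt7b and Wnt6 were among the higher: Wnt7b measured 41.6 and 78.7 TPM in ExE (adjusted p = 1.4e-09) and Wnt6 18.9 and 40.5 TPM (adjusted p = 1.7e-11), with both at 0 in Epi. Secreted inhibitors were among the lower: Sfrp2 measured 0.153 and 0 TPM in ExE and 60.3 and 34.2 TPM in Epi (-5.43 ± 0.54, adjusted p = 7.6e-12). Sfrp1 measured 0 and 2.37 TPM in ExE and 55 and 67.2 TPM in Epi (-5.07 ± 0.68, adjusted p = 3e-08). The nuclear effector Lef1 measured 1.31 and 3.34 TPM in ExE and 139.8 and 87.4 TPM in Epi (-5.14 ± 0.37, adjusted p = 1.8e-16), while Tcf7 overlapped at 29.2 and 25.8 TPM in ExE and 27.8 and 39.8 TPM in Epi. The common effector Ctnnb1 measured 39.4 and 54.0 TPM in ExE and 67.5 and 27.8 TPM in Epi and was not called.

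De novo DNA methyltransferases were far lower in ExE, a tissue known for its sparsely methylated genome. The list for DNA methylation also held the germline genes Dazl, Sycp3, Mael and Tdrkh. Of its 20 genes tested, 5 were lower and 2 higher in ExE, beside 9.26% and 11.5% of all genes. The 2 became 1 with any 1 of the 4 libraries left out. Dnmt3a (chromosome 12, 3806007 to 3914443) measured 9.68 and 8.53 TPM in ExE, against 384 and 471 TPM in Epi, a log2 difference of -5.40 ± 0.22 (adjusted p = 1.9e-26). Dnmt3b (chromosome 2, 153649450 to 153687730) measured 133 and 136 TPM in ExE and 878 and 1087 TPM in Epi (-2.85 ± 0.27, adjusted p = 1.6e-12), so ExE kept more Dnmt3b than Dnmt3a on the length-corrected scale. The cofactor Dnmt3l measured 9.5 and 28.8 TPM in ExE and 33.6 and 18.7 TPM in Epi, and the maintenance partner Uhrf1 201 and 197 TPM in ExE and 166 and 125 TPM in Epi. Neither was called. Among the TET oxidases, Tet1 was lower, at 14.8 and 11.6 TPM in ExE and 43.0 and 55.1 TPM in Epi (-1.81 ± 0.32, adjusted p = 9.3e-06), and Tet2 was higher, at 7.19 and 4.27 TPM in ExE and 0.341 and 0.840 TPM in Epi (2.06 ± 0.37, adjusted p = 1.6e-05). Tet3 measured 5.52 and 4.90 TPM in ExE and 1.98 and 2.00 TPM in Epi, and its adjusted p of 0.041 was 0.098 to 0.16 with any 1 of the 4 libraries left out.

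Polycomb genes, whose complexes place H3K27me3 and H2A ubiquitin, were mostly shared. Of 34 tested, 5 were higher and 2 lower in ExE, shares near the 11.5% and 9.26% over all genes. The 2 lower became 4 without Epi replicate 2 or with median-ratio scaling, and the 5 higher became 3 without either ExE library. The PRC2 catalytic gene Ezh2 measured 242 and 205 TPM in ExE and 279 and 312 TPM in Epi (-0.41 ± 0.33, adjusted p = 0.45), Eed 174 and 106 TPM in ExE and 115 and 124 TPM in Epi, and Suz12 64.8 and 47.6 TPM in ExE and 86.0 and 71.6 TPM in Epi. None of the core PRC2 genes was called. In PRC1, Pcgf5 was higher, at 5.15 and 6.34 TPM in ExE and 0.761 and 0 TPM in Epi (2.34 ± 0.39, adjusted p = 3.7e-06), and Phc1 was lower, at 3.98 and 5.67 TPM in ExE and 47.0 and 52.4 TPM in Epi (-3.14 ± 0.49, adjusted p = 1.3e-06). A list for H3K4 and H3K27 methylation held enzymes, partner subunits such as Men1, and Kdm4c, which is known as an H3K9 demethylase. Men1 (higher) and Kdm4c (lower) were among its calls. Of its 21 genes, 2 were higher and 5 lower in ExE, beside 11.5% and 9.26% of all genes. These counts became 0 and 2 without Epi replicate 2, and 0 and 5 without ExE replicate 1. The H3K4 demethylase gene Kdm5b measured 73.3 and 92.9 TPM in ExE and 324 and 390.5 TPM in Epi (-2.09 ± 0.30, adjusted p = 1.6e-07), and Kdm1a, another H3K4 demethylase, 150.3 and 184 TPM in ExE and 391 and 428 TPM in Epi (-1.29 ± 0.32, adjusted p = 0.0015). Kdm6b, which removes H3K27me3, measured 271 and 249 TPM in ExE and 211 and 239.7 TPM in Epi and was not called.

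Imprinted genes were found on both sides. Of 18 maternally expressed genes tested, 6 were higher and 4 lower in ExE, beside 11.5% and 9.26% of all genes. The 4 lower became 2 without ExE replicate 1 or either Epi library. The 21 paternally expressed genes tested gave 4 higher and 7 lower, the 7 becoming 4 without ExE replicate 1. The listed maternally expressed genes summed to 2847 and 2707 TPM in ExE and to 893 and 956 TPM in Epi. Most of that ExE sum came from Phlda2 and H19, given below, so it does not speak for the maternal list as a whole. The paternally expressed ones summed to 456 and 406 TPM in ExE and to 1057 and 831 TPM in Epi. The neighbours H19 and Igf2, which are known to be expressed from opposite parental copies, were both on the ExE side. H19 (chromosome 7, 142575529 to 142578143), a noncoding RNA, measured 554 and 538 TPM in ExE, against 4.81 and 1.79 TPM in Epi (7.09 ± 0.40, adjusted p = 9.9e-21). Igf2, the growth factor, measured 45.2 and 44.1 TPM in ExE and 0 and 0.0859 TPM in Epi (5.45 ± 0.42, adjusted p = 1.5e-15). Phlda2, a maternally expressed brake on placental growth, measured 1987 and 1876 TPM in ExE and 158 and 182 TPM in Epi (3.5 ± 0.39, adjusted p = 3.1e-10). On the Epi side, Gnas, the stimulatory G protein gene, measured 24.0 and 23.8 TPM in ExE and 122 and 146 TPM in Epi (-2.43 ± 0.21, adjusted p = 5.5e-14), and the tetraspanin gene Cd81 47.8 and 65.1 TPM in ExE and 456 and 396 TPM in Epi (-2.91 ± 0.30, adjusted p = 2.8e-11). Nnat, a paternally expressed proteolipid gene, measured 3.65 and 1.38 TPM in ExE and 43.0 and 40.8 TPM in Epi (-3.69 ± 0.68, adjusted p = 2.8e-05), and Mest, also paternal, overlapped at 67.1 and 60.1 TPM in ExE and 77.5 and 35.1 TPM in Epi.

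Genes known for non-canonical imprinting, in which maternal H3K27me3 rather than DNA methylation sets the silent copy and persists in extra-embryonic tissue, were often higher in ExE. Of 11 tested, 6 were higher and 2 lower, with a median log2 difference of 2.09. The 2 lower became 1 without ExE replicate 1 or either Epi library, and the median became 3.33 with a pseudocount of 0.1 TPM. Sfmbt2 (chromosome 2, 10370510 to 10595253), a Polycomb-related gene of the placenta, measured 248 and 206 TPM in ExE, against 1.00 and 0.753 TPM in Epi (6.92 ± 0.32, adjusted p = 5.8e-24). Slc38a4, an amino acid transporter, measured 97.3 and 87.8 TPM in ExE and 2.70 and 4.55 TPM in Epi (4.37 ± 0.54, adjusted p = 5.7e-09), and Gab1, given above with the FGF pathway, belongs to the same group. The transcript Gm32885 measured 416 and 407 TPM in ExE and 40.3 and 41.3 TPM in Epi (3.30 ± 0.65, adjusted p = 6.8e-05). Jade1 measured 65.5 and 53.3 TPM in ExE and 33.9 and 33.4 TPM in Epi, with a log2 difference of 0.79 ± 0.29 that fell short of 1. TPM sums both alleles, so allele use was not measured.

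Epithelial genes told the 2 epithelia apart. Of 24 genes of simple epithelia and junctions, 11 were higher and 5 lower in ExE, and the 5 became 3 without ExE replicate 1. Krt8 and Krt18 form the keratin pair of simple epithelia. Krt8 measured 181 and 192 TPM in ExE and 10.9 and 9.08 TPM in Epi (4.09 ± 0.34, adjusted p = 1.9e-14), and Krt18 806 and 1126 TPM in ExE and 133 and 161 TPM in Epi (2.70 ± 0.19, adjusted p = 5.3e-17). Krt19 measured 64.1 and 104 TPM in ExE and was at 0 in both Epi libraries (adjusted p = 2e-11). Cldn3, a tight junction claudin, measured 198 and 195 TPM in ExE and 6.92 and 0.0915 TPM in Epi (6.07 ± 0.43, adjusted p = 6.9e-17), while Cldn6 measured 124 and 122 TPM in ExE and 216 and 172 TPM in Epi with a log2 difference of -0.64 ± 0.17, below the size asked of a call. The adhesion gene Epcam was lower, at 662 and 724 TPM in ExE and 1426 and 1881 TPM in Epi (-1.24 ± 0.16, adjusted p = 6e-09). E-cadherin, Cdh1, was shared at 139 and 122 TPM in ExE and 70.3 and 88.0 TPM in Epi. Vim, the intermediate filament of mesenchymal and neural cells, was at 0 in ExE and measured 12.1 and 7.30 TPM in Epi (adjusted p = 0.00074).

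Genes of glucose uptake and of early steps of glycolysis were among those higher in ExE. Of 21 glycolysis genes, 6 were higher and none lower, with a median log2 difference of 0.66 that was 0.46 after median-ratio scaling. The 6 became 4 without either ExE library and 3 with array weights. Also among the 6 was Slc16a3, a lactate transporter gene outside the early steps. Its call was lost without Epi replicate 1 or either ExE library. The glucose transporter gene Slc2a1 measured 457 and 440.3 TPM in ExE and 154 and 96.1 TPM in Epi (1.87 ± 0.25, adjusted p = 4.3e-08), the hexokinase gene Hk1 24.7 and 22.9 TPM in ExE and 3.65 and 0 TPM in Epi (3.52 ± 0.50, adjusted p = 1.3e-07), and the phosphofructokinase gene Pfkp 52.3 and 85.1 TPM in ExE and 11.5 and 6.60 TPM in Epi (2.80 ± 0.41, adjusted p = 2.3e-07). Aldoa and Eno1, later enzymes and among the most abundant messages, differed by less than the size asked of a call: Aldoa measured 3800.4 and 4016 TPM in ExE and 2464 and 2491 TPM in Epi, and Eno1 4972 and 5313 TPM in ExE and 4076 and 3655 TPM in Epi.

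Many immediate early genes, which respond within minutes to growth factors and also to tissue dissociation, were higher in ExE. Of 16 immediate early and heat shock genes, 7 were higher and none lower, with a median log2 difference of 1.37. Fos measured 288 and 235 TPM in ExE, against 8.02 and 7.17 TPM in Epi (4.93 ± 0.43, adjusted p = 1.1e-13), and Junb 237 and 182 TPM in ExE and 28.1 and 23.8 TPM in Epi (2.96 ± 0.40, adjusted p = 4.3e-08). Both ExE libraries stood above both Epi libraries. Of the abundant heat shock genes, Hspa8 measured 7039.6 and 7625 TPM in ExE and 5901 and 4767 TPM in Epi (0.47 ± 0.14) and Hsp90aa1 2765 and 2498 TPM in ExE and 2926 and 3483 TPM in Epi (-0.28 ± 0.13). Neither was called. The part of handling in these levels was not tested.

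**Figure D3:**
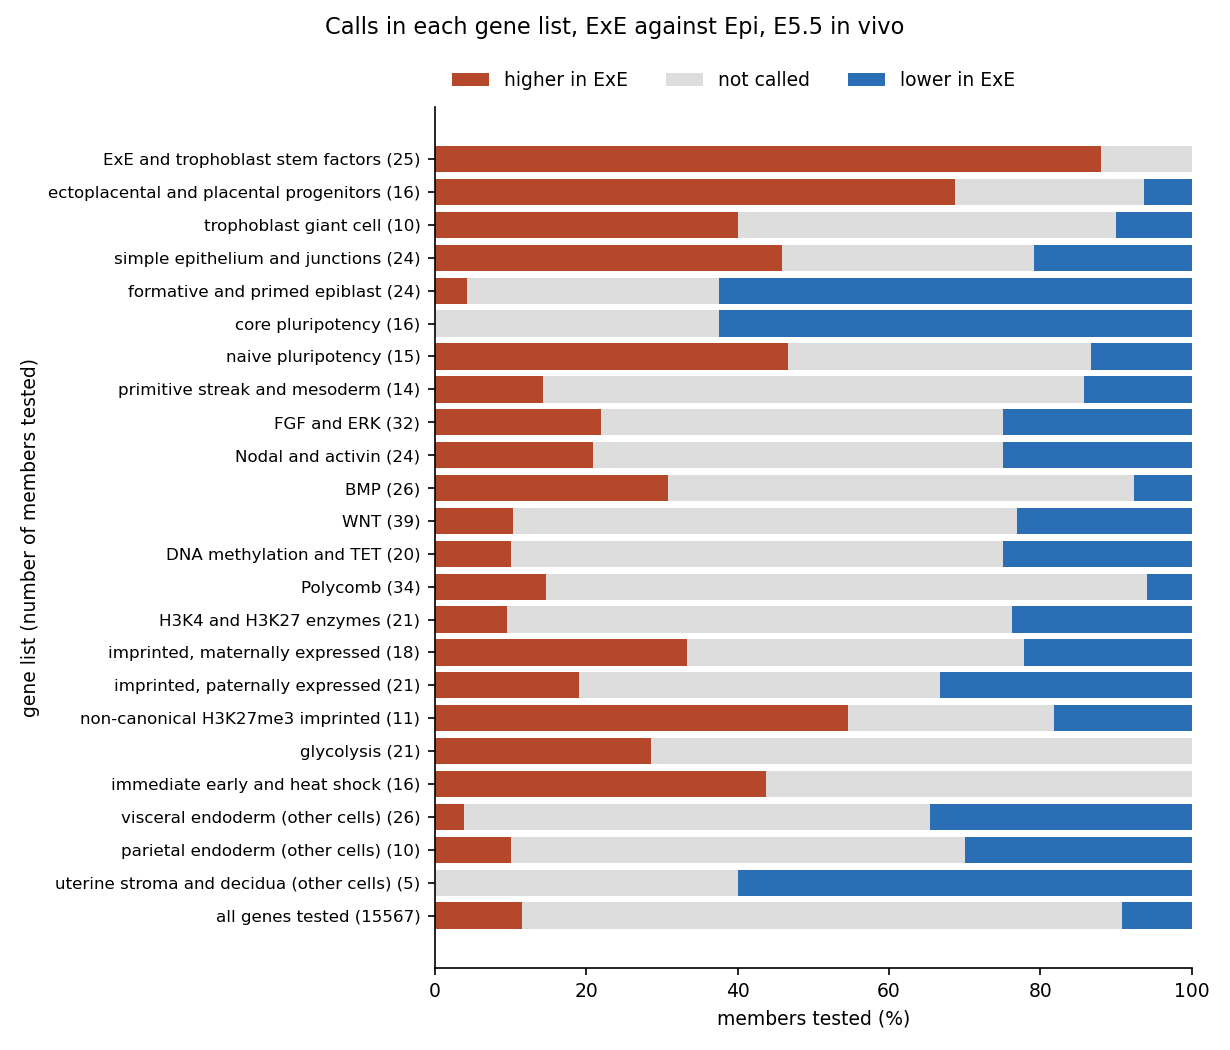
Share of the tested members of each gene list that were called higher in ExE (left), not called (middle) or called lower in ExE (right), E5.5 in vivo, with the number tested in brackets and all 15567 genes at the bottom. The trophoblast lists lean to ExE, the formative and core pluripotency lists to Epi, and the Polycomb list is close to all genes. The sex-linked and blood lists, of 6 and 3 genes tested, are not drawn.

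Markers of other cell types were listed at these levels. The 26 visceral endoderm genes summed to 28.7 and 53.1 TPM in ExE and to 125 and 169 TPM in Epi, against 17756 to 18293 TPM in visceral endoderm of cultured E5.5 embryos, and 9 were lower and 1 higher in ExE. Ttr, a transport protein gene of that layer, measured 0.315 and 0.836 TPM in ExE and 15.3 and 13.9 TPM in Epi, and its defining transcription factor genes Gata6 and Hnf4a were at 0 in all 4 libraries. The 9 became 6 without ExE replicate 1. The 10 parietal endoderm genes summed to 154 and 150.3 TPM in ExE and to 172 and 174 TPM in Epi, and 1 was higher and 3 lower in ExE. The matrix gene Sparc, which many cell types express, made up most of that sum, at 149 and 143 TPM in ExE and 142 and 152 TPM in Epi. The 9 blood genes in the table summed to 0.239 and 4.72 TPM in ExE and to 0.903 and 0.556 TPM in Epi, and none of the 3 tested was called. Among decidual and stromal genes, Dcn was at 0 in both ExE libraries and measured 15.3 and 26.6 TPM in Epi, and the 12 listed genes summed to 4.03 and 0.0543 TPM in ExE and to 22.4 and 38.1 TPM in Epi. Y-linked transcripts and Xist were listed in both tissues: Xist measured 5.60 and 4.02 TPM in ExE and 2.30 and 4.77 TPM in Epi, and Eif2s3y 13.1 and 6.4 TPM in ExE and 20.8 and 21.7 TPM in Epi. Kdm5d, also Y-linked, measured 0 and 0.0338 TPM in ExE and 3.89 and 3.60 TPM in Epi. The part of other cells' RNA or of sex make-up in the differences above was not tested.

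Cultured embryos of the same age offer a second ExE and Epi pair that shares no library with the in vivo pair. Across the 15567 genes, the log2 differences of the 2 pairs correlated at r = 0.575. Of the 1797 genes higher in ExE in vivo, 834 were also higher in ExE after culture (46.4% of the in vivo list and 44.1% of the 1891 after culture, which are 12.1% of genes tested) and 21 were lower. Of the 1442 lower in vivo, 639 were lower after culture (44.3% of these and 47.3% of the 1350, which are 8.67% of genes tested) and 48 were higher. Elf5 measured 42.8 and 44.1 TPM in ExE in vivo and 135 to 156 TPM in cultured ExE, and Tfap2c measured 297 and 264 TPM in ExE in vivo and 306 to 380.2 TPM in cultured ExE. Both genes were thus well detected in ExE in both settings. In the cultured Epi libraries Tfap2c did not reach 0, at 4.38 to 10.7 TPM.

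The change in the ExE minus Epi difference between settings was itself tested. It was called more positive in vivo than after culture, that is shifted toward ExE, for 765 genes (4.91%), and more negative for 792 (5.09%). Fits to the 10 libraries alone gave 237 and 325, to the E5.5 libraries 331 and 493, and array weights 353 and 316. Visceral endoderm genes led the negative side. Ttr measured 0.315 and 0.836 TPM in ExE and 15.3 and 13.9 TPM in Epi in vivo, against 79.7 to 101 TPM in cultured ExE and 0 to 0.604 TPM in cultured Epi, and the in vivo minus cultured change was -9.41 ± 0.33 on the log2 scale (SE, adjusted p = 1.9e-28). Apoa1, an apolipoprotein gene, measured 0.606 and 5.17 TPM in ExE and 16.2 and 37.2 TPM in Epi in vivo, against 135 to 152 TPM in ExE and 0.423 to 2.85 TPM in Epi after culture (adjusted p = 4.6e-12). Of the 26 visceral endoderm genes, 20 had a more negative difference in vivo and none a more positive one, and their sum was 2089 to 2257 TPM in cultured ExE. With the genes called higher in cultured visceral endoderm than in cultured Epi left out, a count chosen after seeing the data, 682 more positive and 422 more negative differences were left. The part of visceral endoderm RNA in the rest was not tested.

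**Figure D4:**
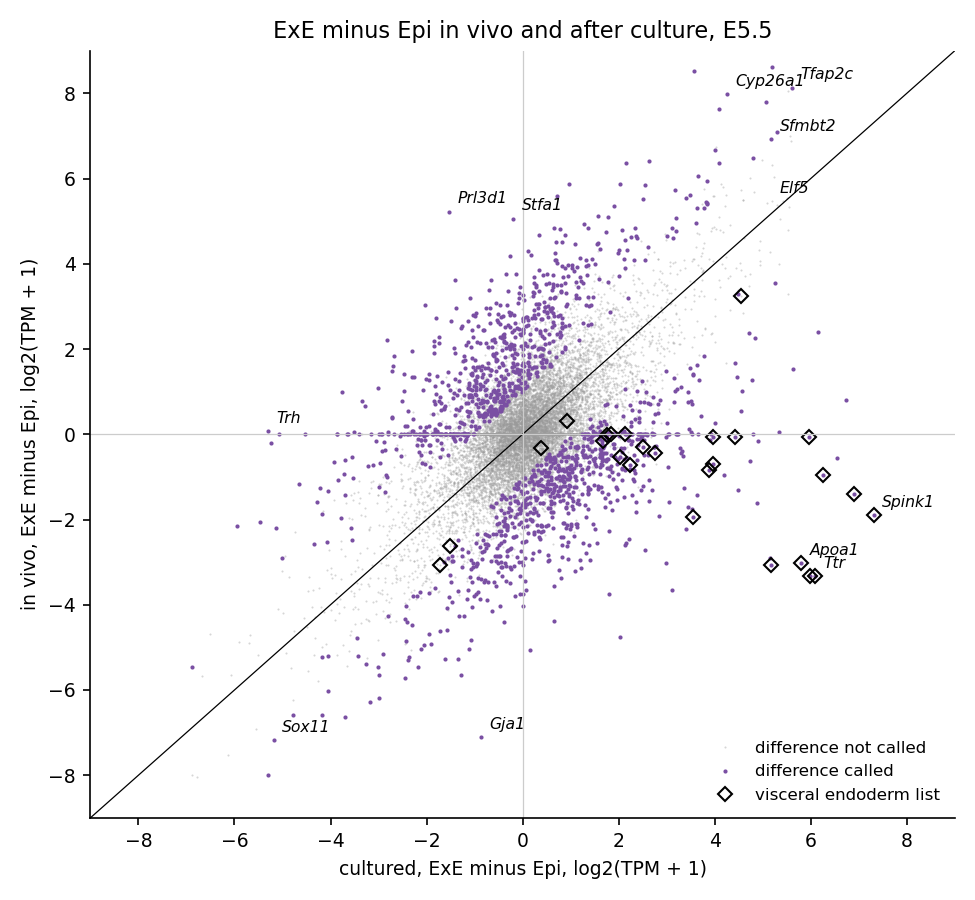
Log2 difference, ExE minus Epi, in vivo (vertical) against the same after culture (horizontal) for 15567 genes at E5.5, with the line of equal difference. Genes whose 2 differences were called unequal are coloured and visceral endoderm genes are marked by diamonds, most of which lie to the right of 0 and near or below 0 on the vertical axis.

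The gap junction gene Gja1 also changed between settings. Gja1 measured 4.79 and 6.21 TPM in ExE and 793 and 1004 TPM in Epi in vivo, whereas after culture both tissues held it, at 151 to 190.1 TPM in ExE and 240.3 to 390.1 TPM in Epi, and the in vivo minus cultured change was -6.25 ± 0.47 (adjusted p = 4.9e-15). The difference was thus wider in vivo. Gja1 also reached 1139 to 1218 TPM in cultured visceral endoderm, and the part of that RNA in cultured ExE was not tested. Stfa1, a cystatin-family protease inhibitor, measured 33.4 and 31.4 TPM in ExE in vivo and was at 0 in both in vivo Epi and all 3 cultured ExE libraries (adjusted p = 5e-05). Trh, the thyrotropin-releasing hormone gene, was near 0 in vivo, at 0 and 0.0990 TPM in ExE and 0 TPM in both Epi libraries, and measured 27.3 to 48.8 TPM in cultured Epi, with cultured ExE at 0 (adjusted p = 8.1e-11).

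At E4.75 fewer genes separated the 2 tissues. There, 423 genes were higher in ExE (2.72%) and 949 lower (6.10%, or 8.81% in either direction), against 1797 and 1442 at E5.5 in vivo, and 145 of the higher and 429 of the lower genes were shared (8.07% and 29.8% of the E5.5 lists, 34.3% and 45.2% of the E4.75 lists). The difference was called more positive at E5.5 in vivo than at E4.75 for 1192 genes (7.66%) and more negative for 650 (4.18%), a split that became 933 and 897 after quantile normalization and 871 and 812 after median-ratio scaling. Trophoblast factors were among those more positive: of the 25 tested, 20 had a more positive difference at E5.5 in vivo and none a more negative one. Tfap2c measured 297 and 264 TPM in ExE at E5.5 in vivo and 144 to 157 TPM at E4.75, and was listed at 0 in Epi at E5.5 in vivo, against 55.3 to 63.0 TPM in Epi at E4.75 (adjusted p = 1.3e-08). Elf5 measured 42.8 and 44.1 TPM in ExE at E5.5 in vivo and 186 to 211 TPM at E4.75, while Epi was at 0 at E5.5 in vivo and held 79.1 to 84.8 TPM at E4.75. Its ExE level was thus lower at the later stage although the difference from Epi was wider.

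The summed list showed the same in Epi and the opposite of Elf5 in ExE. The 26 trophoblast factor genes summed to 8914 and 8844 TPM in ExE and 237 and 181 TPM in Epi at E5.5 in vivo, against 3828 to 4108 TPM in ExE and 1747 to 1875 TPM in Epi at E4.75. RNA of the listed genes was thus higher in the E4.75 Epi libraries than in E5.5 Epi in vivo. Whether Epi cells or other cells carried it was not tested. The list is not of trophoblast alone, since Zfp42, Esrrb and Nr0b1 are also in the naive pluripotency list. Rhox5 alone made up 3981 and 3975 TPM of the ExE sums at E5.5 in vivo, and its ExE minus Epi difference at E4.75 was 0.87 ± 0.20. Gata3 measured 816 and 705 TPM in ExE at E5.5 in vivo and 135 to 166 TPM at E4.75, and 0 and 7.23 TPM in Epi at E5.5 in vivo, against 58.5 to 72.5 TPM in Epi at E4.75 (difference 6.90 ± 1.12, adjusted p = 6.9e-06). Hs3st3b1 and Morc4 were low in ExE of E4.75. Hs3st3b1 measured 244 and 199 TPM in ExE at E5.5 in vivo and 1.90 to 1.99 TPM at E4.75, and Morc4 measured 595 and 529 TPM in ExE at E5.5 in vivo and 22.6 to 29.0 TPM at E4.75.

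Pou3f1 differed between the E4.75 and the E5.5 in vivo libraries in both tissues. It measured 238 and 197 TPM in ExE at E5.5 in vivo, 111 to 130.5 TPM in cultured ExE and 2.84 to 3.14 TPM in ExE at E4.75. In Epi it measured 196 and 207 TPM at E5.5 in vivo, 45.0 to 57.3 TPM after culture and 20.9 to 23.2 TPM at E4.75. ExE stood below Epi at E4.75 (log2 difference -2.53 ± 0.33, adjusted p = 4.3e-08), overlapped it at E5.5 in vivo, and stood above it after culture (1.17 ± 0.33, adjusted p = 0.0049), and the change between E4.75 and E5.5 in vivo was called (2.63 ± 0.52, adjusted p = 0.0002). On the other side, 3 of the 10 giant cell genes and 13 of the 26 visceral endoderm genes had a more negative difference at E5.5 in vivo than at E4.75, and 1 and 0 a more positive one. Prl3d3, a placental lactogen gene, measured 9.99 and 1.37 TPM in ExE at E5.5 in vivo and 268 to 309 TPM at E4.75, and Ctsll3, a cathepsin-like gene, was at 0 in all 4 E5.5 in vivo libraries, with 211 to 222 TPM in ExE of E4.75. The giant cell list summed to 226 and 166 TPM in ExE at E5.5 in vivo, against 2299 to 2588 TPM at E4.75.

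**Figure D5:**
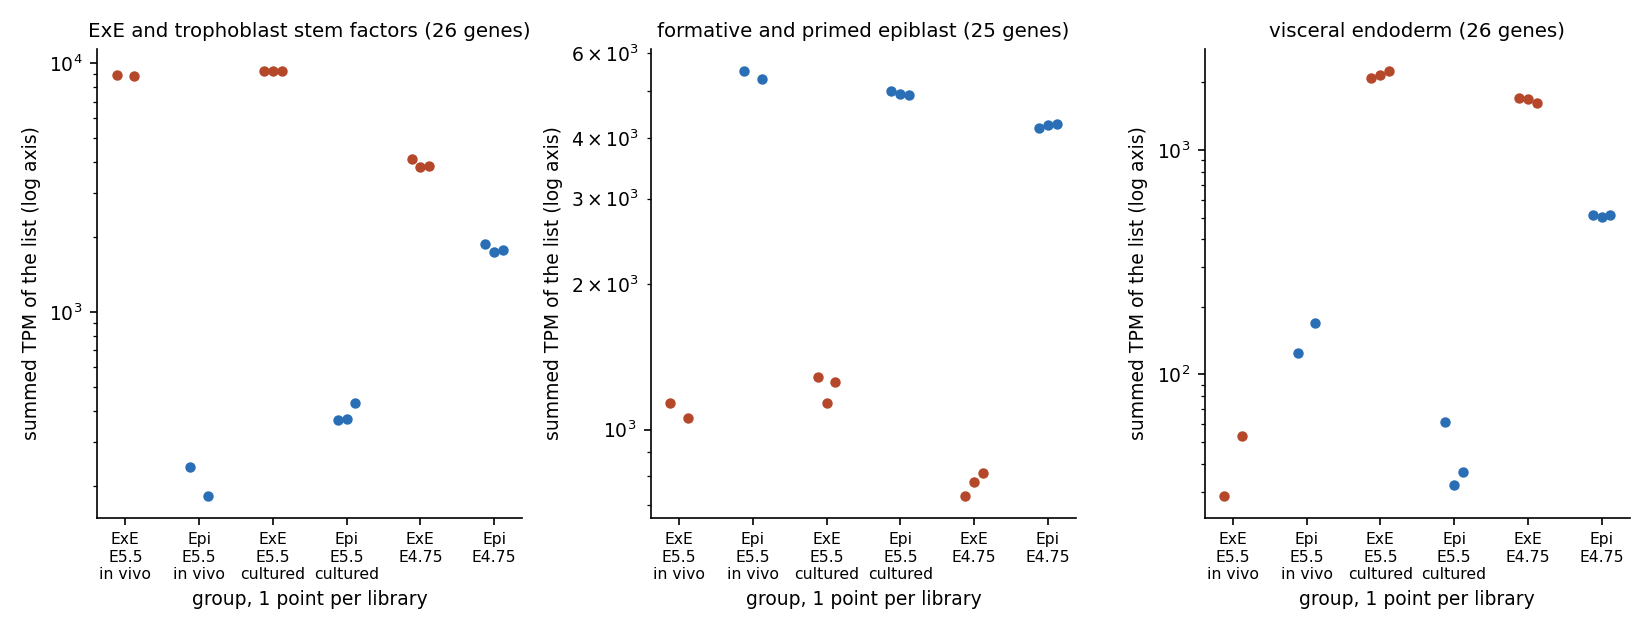
Summed TPM (log axis) of the trophoblast stem factor list, the formative epiblast list and the visceral endoderm list in each library of the ExE and Epi groups. The trophoblast sum of Epi is 181 to 237 TPM at E5.5 in vivo and 1747 to 1875 TPM at E4.75, and the visceral endoderm sum of ExE is 28.7 to 53.1 TPM in vivo and 2089 to 2257 TPM after culture.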

How the data were processed

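The deposited table holds length-corrected transcript abundances (TPM) for 25006 genes in 67 libraries of 23 groups, a unit the authors made from Smart-seq2 reads. HISAT2 2.2.1, StringTie 2.2.1, Cufflinks and the build mm10 are named, per the submitters' processing notes, without their roles. Values were taken as log2(TPM + 1). Genes that reached 1 TPM in 3 or more libraries (15567) were fitted with limma 3.58.1 in R 4.3.3, with a mean for each group, a trend of spread on level and Benjamini-Hochberg adjustment over all genes, and a call needed an adjusted p under 0.05 and a log2 difference of at least 1. Log2 differences are ExE minus Epi and understate the change of low genes. TPM keeps no depth, so no counting error can be given.

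The 25 gene lists, which share some genes, and the contrast were chosen with earlier results of these data known. Genes were named by a rule: the 3 markers; per list, up to 4 called genes per direction by size and the 2 most abundant uncalled ones; the 12 largest per direction among genes without overlap; and the 5 largest per direction for each change between settings or stages. Several further list members, the gene families and the X chromosome counts were added after their values were seen. Each of 15567 genes was simulated with normal noise of the same spread in all groups, as the fit assumes, and with known changes in this comparison. Recovered were 41% of 100 genes changed by 1.5 on the log2 scale and 88% of 100 changed by 3, with 4.44% false calls. The real groups differed in spread, so these shares do not give the error rate of the calls above. Gene positions are GENCODE M21 (GRCm38).

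Some results are not reported here.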

Additional observations from a re-analysis of the deposited data

Results flagged for a closer look

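The following genes had an ExE minus Epi difference that itself changed between settings or stages in the limma test of that change. Values are changes in the log2 difference ± SE, except for genes with a whole group at 0, for which the adjusted p is given instead.

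Between E5.5 in vivo and culture, more positive in vivo were Prl3d1 (adjusted p = 0.00034), Trh (adjusted p = 8.1e-11), Stfa1 (adjusted p = 5e-05), Cnn1 (adjusted p = 7.9e-09) and H2ac20 (5.07 ± 1.00). Prl3d1 measured 58.6 and 22.5 TPM in ExE in vivo and 34.0 to 53.2 TPM in cultured ExE, with 79.9 to 187 TPM in cultured Epi and 0 in Epi in vivo. Cnn1, a smooth muscle calponin gene, was listed at 0 in all 4 in vivo libraries, against 0 to 0.294 TPM in cultured ExE and 32.6 to 41.4 TPM in cultured Epi. The histone gene H2ac20 measured 32.5 and 57.6 TPM in ExE and 28.5 and 0 TPM in Epi in vivo, against 0.492 to 25.3 TPM in cultured ExE and 33.4 to 50.7 TPM in cultured Epi, and its call was lost without Epi in vivo replicate 2 (2.63 ± 0.89, adjusted p = 0.052). More negative in vivo were Ttr (-9.41 ± 0.33), Apom (-9.30 ± 0.52), Spink1 (-9.21 ± 0.73), Apoa1 (-8.82 ± 0.80) and Pga5 (adjusted p = 7.3e-14), all of the visceral endoderm list. Spink1 measured 0.983 and 12.4 TPM in ExE and 12.1 and 26.9 TPM in Epi in vivo, against 593 to 742 TPM in cultured ExE and 1.38 to 7.79 TPM in cultured Epi.

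Between E5.5 in vivo and E4.75, more positive at E5.5 were Hs3st3b1 (adjusted p = 3.1e-16), Gata3 (6.90 ± 1.12), Morc4 (6.83 ± 0.63) and Tfap2c (adjusted p = 1.3e-08). More negative at E5.5 were Apoa1 (-7.77 ± 0.80), Prl3d3 (adjusted p = 1e-08), Gja1 (-6.28 ± 0.47), Ctsll3 (adjusted p = 9.2e-22) and Enpp2 (adjusted p = 3.5e-11). Gja1 measured 4.79 and 6.21 TPM in ExE and 793 and 1004 TPM in Epi at E5.5 in vivo, against 40.6 to 52.3 TPM in ExE and 67.8 to 104 TPM in Epi at E4.75.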

How the results depend on the processing

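Counts of genes higher and lower in ExE in vivo were 1112 and 858 with array weights, against 1797 and 1442. A fit to the groups compared alone gave 46 and 34, where 2 residual degrees of freedom remain by construction, and 1180 higher were left without genes higher in cultured visceral endoderm. For the change between in vivo and culture (765 and 792), array weights gave 353 and 316, the groups compared alone 237 and 325, the E5.5 libraries alone 331 and 493, and 422 more negative were left without the visceral endoderm genes. The causes of the other shifts were not tested. Leaving out 1 library at a time gave 1447 to 1780 higher and 1164 to 1478 lower, 586 to 916 and 650 to 818 for culture, and 945 to 1361 and 538 to 744 for E4.75. The labels do not say whether ExE and Epi libraries of the same replicate number came from the same embryos. Deviations of ExE and Epi replicate 1 correlated across genes at r = -0.021, which cannot settle this with 2 libraries a group. The replicate block gave 1785 and 1426, 738 and 778, and 1187 and 643. Of 148 called named genes, 24 lost their call with array weights, 126 in the 4 libraries alone, 21 in the E5.5 libraries alone, 12 with a pseudocount of 0.1 TPM, and 16 to 24 with a library left out. Igfbp4 alone reversed: its log2 difference was 0.038 without Epi replicate 2, in a range of -3.06 to 0.038 with 1 library left out. TPM gives no depth, so limits set by depth cannot be stated.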

Other observations

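Gene families looked at after their values were seen are given here as description. In the X-linked Rhox homeobox cluster, 20 genes were tested, 16 were higher in ExE and none was lower, with a median log2 difference of 4.0. Most of the higher members were listed at 0 in both Epi libraries, so this median depends on the 1 TPM added. Near-identical copies in this cluster may share reads, so single members are uncertain and the 16 calls are not independent. Rhox5 measured 3981 and 3975 TPM in ExE and 119 and 60.0 TPM in Epi. Of 11 annexins, which bind membranes in the presence of calcium, 5 were higher and none lower, and of 10 calcium-binding S100 genes likewise 5 and none. Of 14 keratins, 4 were higher and none lower. All genes tested gave 11.5% higher and 9.26% lower.

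X-linked genes were called lower in ExE more often than the rest in each setting for which this was counted. Of 620 tested, 111 were lower (17.9%) and 85 higher (13.7%), against 8.91% and 11.5% of genes on other chromosomes. With array weights 11.8% of X-linked genes and 5.26% of others were lower. Morc4 on chromosome X went the other way, as given above. Kdm5d, a Y-linked gene, measured 0 and 0.0338 TPM in ExE and 3.89 and 3.60 TPM in Epi, and Xist 5.60 and 4.02 TPM in ExE and 2.30 and 4.77 TPM in Epi. The part of sex make-up in these shares was not tested.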
